A study of Mus musculus with 2 samples.

Results

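Keratin genes lie in 2 clusters of the mouse genome, and the Ehf peaks in and around them in corneal epithelium are described here. Peaks were taken where their midpoint fell in the type I cluster, chr11:99100000-100130000, or the type II cluster, chr15:101170000-101870000 (mm9). This gave 11 of the 15384 peaks of the deposited list, 3 in the type I and 8 in the type II cluster. The study mapped binding of Ehf, a transcription factor of the ETS family found in epithelia, by ChIP-seq. Both of its groups were wild-type mice of 2 to 3 months, whose strain the labels give both as CB6 and as C57Bl/6, with corneal epithelium of 15 mice pooled, freed from the eye with dispase and fixed. The first group was chromatin (24 ug) precipitated with an antibody to Ehf, ESE-3A (E-15), and the other was input chromatin with no antibody. Each group was 1 library, so nothing could be compared between biological samples. The peak list holds positions and scores without read counts, so the depth is unknown, and no expression by which the tissue could be checked against its markers.

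Keratins are the intermediate filament proteins of epithelial cells. A filament is built from pairs of 1 acidic type I and 1 basic to neutral type II keratin, and the genes of each type sit side by side. Krt5 (type II) and Krt14 (type I) form the pair of the basal layer of stratified epithelia, Krt15 is a further type I keratin of basal cells, and Krt12 is the type I keratin that marks differentiated corneal epithelium. The type I cluster also holds many genes of keratin-associated proteins, which belong to hair. In the RefSeq table of the later build GRCm38.p6, used here only for names and order, 23 genes named Krtap stand between Krt40 and Krt33a. Of the 27 type I and 24 type II keratins listed for this work, 27 and 23 were found in that table. Krt12 stands there between Krt10 and Krt20. Krt15 stands between Krt13 and Krt19 and is separated from Krt14 by Krt19 and Krt9. Krt5 stands between Krt6a and Krt71.

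The positions used for 3 of the genes in mm9 were 99.28 Mb for Krt12 and 100.06 Mb for Krt14 on chromosome 11, and 101.54 Mb for Krt5 on chromosome 15. They are rounded to 10 kb, and no mm9 annotation or sequence was used, so peaks were not placed in exons, introns or promoters, and Krt15 was not set apart. The sequences in front of these 3 genes are shown because the peak list is examined around them, with the core letters of ETS sites, GGAA or TTCC on the other strand, in capitals. Each is the stretch of 250 bases before the gene's start, 5′ to 3′ on the gene's strand, from RefSeq on GRCm38.p6. Krt12 lies at chr11:99422260-99422509, Krt14 at chr11:100206031-100206280 and Krt5 at chr15:101712906-101713155, all on the minus strand. These coordinates belong to another build than the peaks and cannot be set beside them.
Krt12: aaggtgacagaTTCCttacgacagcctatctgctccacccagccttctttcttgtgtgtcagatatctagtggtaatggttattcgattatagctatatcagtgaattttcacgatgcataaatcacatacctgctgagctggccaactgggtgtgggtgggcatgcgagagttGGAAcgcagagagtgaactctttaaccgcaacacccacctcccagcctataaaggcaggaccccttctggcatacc
Krt14: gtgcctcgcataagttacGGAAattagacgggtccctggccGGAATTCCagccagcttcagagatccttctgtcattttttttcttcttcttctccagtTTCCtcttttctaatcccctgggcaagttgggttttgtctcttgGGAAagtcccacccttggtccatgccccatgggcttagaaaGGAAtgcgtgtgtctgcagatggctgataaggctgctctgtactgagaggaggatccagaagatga
Krt5: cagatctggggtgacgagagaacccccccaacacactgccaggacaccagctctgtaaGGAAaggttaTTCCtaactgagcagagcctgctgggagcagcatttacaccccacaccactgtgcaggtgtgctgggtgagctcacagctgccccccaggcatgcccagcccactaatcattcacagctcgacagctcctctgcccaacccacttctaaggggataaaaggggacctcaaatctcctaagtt

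The Krt14 sequence held 6 of these cores, 4 as GGAA and 2 as TTCC, and 8.69% of the 32851 RefSeq promoters held as many or more in the same 250 bases. Krt12 and Krt5 held 2 cores each, 1 in either direction, as 76.8% of promoters did or exceeded. GGAA alone is short and was found on either strand in 93.4% of all promoters, and in 31 of the 36 promoters that matched 35 of the listed keratin genes (86.1%), with a median of 2.00 cores against 3.00 over all promoters. The longer letters AGGAAG, which contain GGAA, were in none of the promoters of Krt12, Krt14 and Krt5. They were in 10 of the 36 keratin promoters (27.8%) and in 29.5% of all. The letters CCGGAAG, which contain GGAA as well, were in 0 of the 36 and in 6.91% of all. A match of letters is a description of the sequence and does not show a bound site.

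No Ehf peak was listed beside Krt12, Krt14 or Krt5. Within 25 kb on each side of the 3 positions the list held 0 peaks in each case. This is the usual state of a window of that size: of all windows of 50 kb, taken in steps of 10 kb, 68.7% on chromosome 11 and 76.2% on chromosome 15 held no peak. A count of 0 in 50 kb allows up to 73.8 peaks per Mb (exact Poisson 95% limit, counting error only), which is above the density of either chromosome. Sites under the threshold the authors used are missing from the list, so 0 peaks does not show that Ehf was absent.

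The peak nearest to Krt12 ended 32.2 kb below its position, and the nearest one above it was 620.3 kb away. Of the points of a 10 kb grid along chromosome 11, 62.5% were at least 32.2 kb from a peak, so Krt12 was no farther from a peak than most of the chromosome. The nearest peak to Krt14 was 147 kb above it, outside the cluster, and the next was 159 kb below, and 23.7% of the grid points were as far from a peak. The nearest peak to Krt5 was 33.2 kb above it and the next 167 kb below. On chromosome 15, 70.6% of the grid points were at least 33.2 kb from a peak. With windows of 50 kb on each side, 2 peaks fell to Krt12, 1 to Krt5 and still 0 to Krt14.

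**Figure D1:**
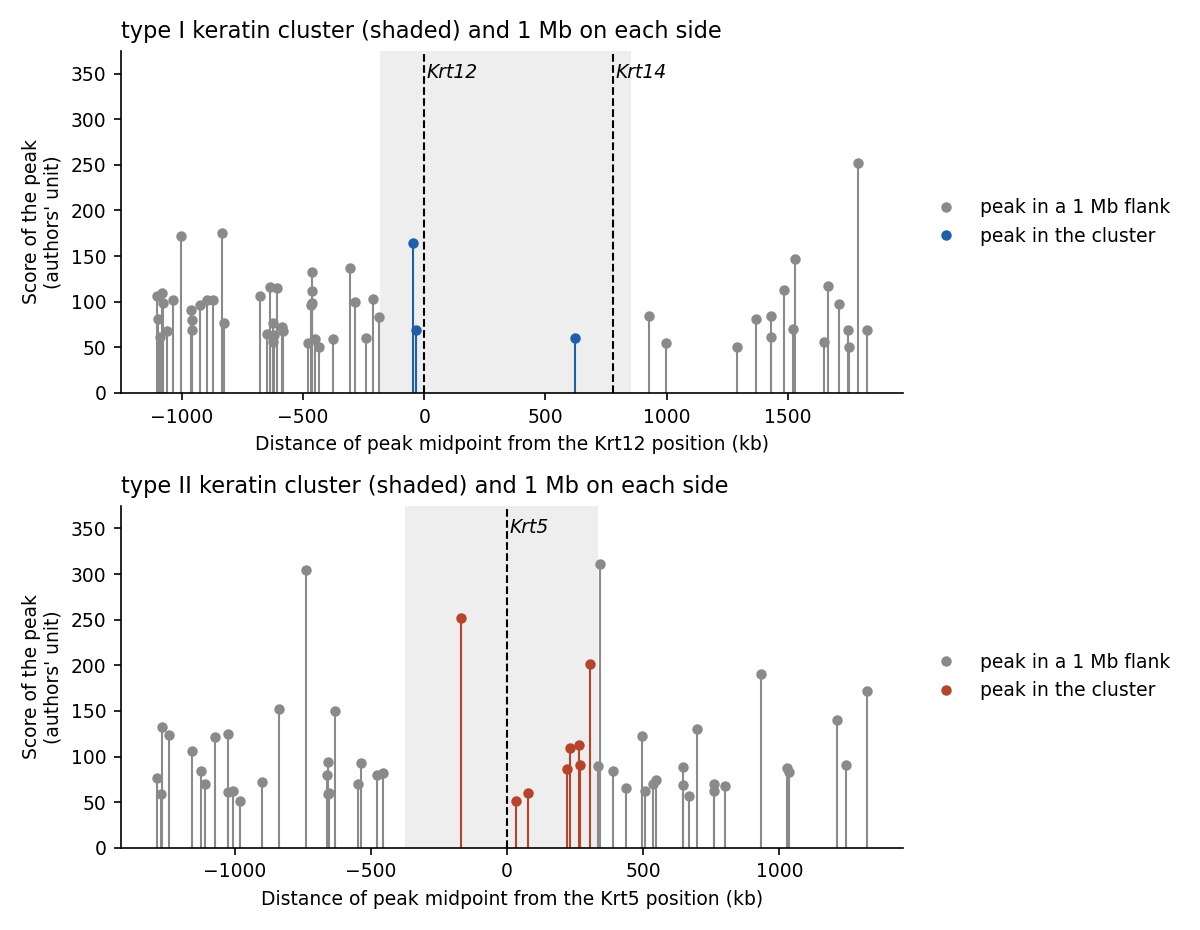
Score of each Ehf peak (authors' unit) against the distance of its midpoint from the Krt12 position (top) or the Krt5 position (bottom) in kb, for the keratin clusters (shaded, coloured peaks) and 1 Mb on each side (grey peaks); dashed lines mark the gene positions. The 3 type I peaks leave most of the shaded stretch empty, while 7 of the 8 type II peaks lie on the higher-coordinate side of Krt5.

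The type I cluster, which holds Krt12, Krt14 and Krt15, carried few Ehf peaks. The first of its 3 peaks was at chr11:99232160-99232441, 47.7 kb below the Krt12 position, and was 281 bp wide. Its score of 164.22 was the highest of the cluster and stood at percentile 88.2 of the whole list. The second was at chr11:99247318-99247763, 32.5 kb below the Krt12 position from its midpoint and 14.9 kb from the first, with a score of 69.53 and a width of 445 bp. Both lay on the Krt24 and Krt10 side of Krt12, if the gene order of GRCm38.p6 holds in mm9. The third, at chr11:99900275-99900724, was 449 bp wide and 160 kb below the Krt14 position, and its score of 59.92 was the lowest of the cluster, at percentile 14.5 of the list. The peak just outside the lower bound, 8.32 kb from it, scored 83.50, and the first beyond the upper bound was 77.1 kb away and scored 84.12.

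The second and the third peak were separated by 653 kb without a peak, from 99247763 to 99900275, a stretch that took up 63.4% of the type I cluster and includes the Krt12 position. It was the 25th longest of the 1083 stretches between neighbouring peaks of chromosome 11, whose median was 46.6 kb. Long stretches cover much of a chromosome, and 23.0% of the grid points of chromosome 11 lay in one at least as long. The Krt14 position lay in the next stretch, 306 kb from 99900724 to 100206804, which was the 91st longest and ran past the upper bound of the cluster. Of the grid points, 46.3% lay in a stretch of that length or more.

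The type I cluster had 2.91 peaks per Mb (exact Poisson 95% interval 0.601 to 8.51), against 8.95 per Mb (8.42 to 9.50) over the 1081 peaks of the rest of chromosome 11. The ratio was 0.326 (exact 95% interval 0.0670 to 0.954). These intervals cover counting error only and treat peaks as independent, which peaks that lie in groups are not. Of all windows of 1.03 Mb on chromosome 11, 27.1% held 3 peaks or fewer, with a median of 7, so a count this low was common on the chromosome. The ratio rested on where the bounds were drawn. With both bounds moved out by 100 kb the stretch held 7 peaks and the ratio was 0.637 (0.256 to 1.32). In 6 of the 9 alternatives tried, this one among them, the interval included 1.

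The sequence on either side of the type I cluster was rich in peaks. The 1 Mb below it held 38 peaks (exact Poisson 95% interval 26.9 to 52.2 per Mb) and the 1 Mb above it 16 (9.15 to 26.0). Against these 54 peaks together, 27.0 per Mb, the density of the cluster had a ratio of 0.108 (0.0216 to 0.332). In a description added after seeing the data, 4.49% of windows of 1.03 Mb on chromosome 11 had as low a ratio to their own flanks, out of 11462 windows with a peak in the flanks. Of all windows, 183 had 54 or more peaks in their flanks, and 8 of these had as low a ratio. Windows over the cluster itself were not left out. These 8 all overlap it and hold the same peaks, so they are the cluster again and not other places. They also count in the 4.49%. Windows overlap, so these shares are not chance levels.

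**Figure D2:**
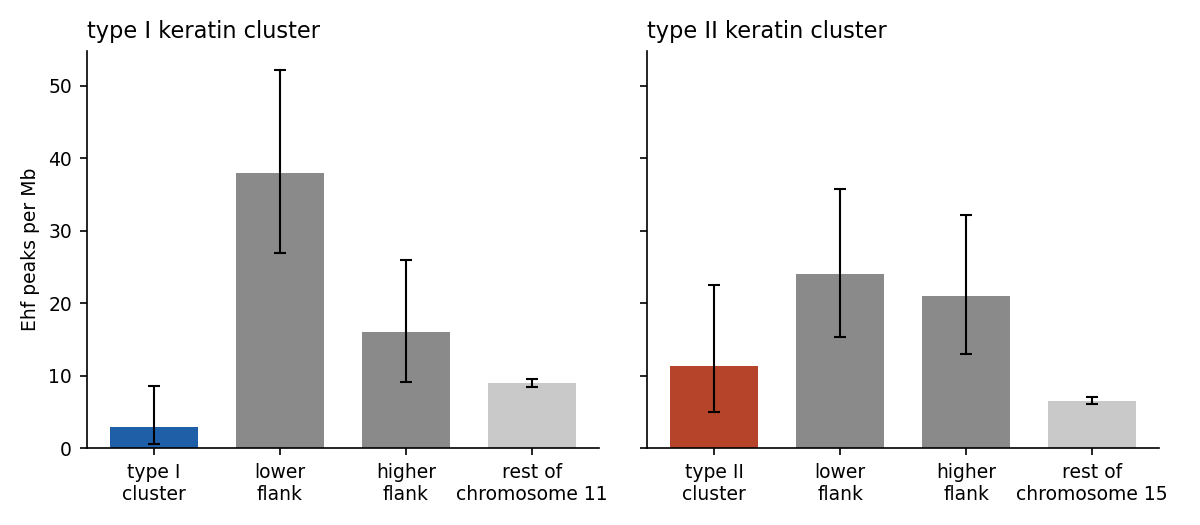
Ehf peaks per Mb in each keratin cluster, in the 1 Mb flank on its lower and higher coordinate side, and in the rest of the chromosome; bars are counts divided by length and error bars are exact Poisson 95% intervals. The type I cluster (2.91 per Mb) is below both of its flanks (38 and 16), and the interval of the type II cluster (11.4 per Mb) overlaps those of its flanks (24 and 21).

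The type II cluster, which holds Krt5, carried 8 Ehf peaks, 1 on the lower and 7 on the higher side of the Krt5 position. The peak on the lower side, at chr15:101372421-101372573, was 168 kb from Krt5. Its score of 252.28 was the highest of both clusters, at percentile 97.3 of the list, and with 152 bp it was the narrowest. Peaks under 200 bp were 1 of the 8 in this cluster and 0 of the 3 in the type I cluster, against 22.0% of all peaks.

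On the higher side, the peak nearest to Krt5, at chr15:101573158-101573501 (343 bp), had the lowest score of both clusters, 51.08, at percentile 1.8 of the list and close to the lowest score in it, 50.01. The next, at chr15:101616598-101617027, was 76.8 kb from Krt5, 429 bp wide and scored 59.69, at percentile 14.3. So both peaks within 100 kb of Krt5 had scores near the low end of the list.

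The other 5 peaks lay 220 to 305 kb above Krt5, within 150 kb of the upper bound, and had a median score of 109. Toward that end the gene order of GRCm38.p6 runs from Krt71 to Krt4, Krt79, Krt78, Krt8 and Krt18, of which Krt8 (type II) and Krt18 (a type I gene in the type II cluster) form the pair of simple epithelia. The peaks were not assigned to any of these genes. The first of the 5, at chr15:101759442-101759726 (284 bp), scored 86.67. It was 10.8 kb from the second, at chr15:101770559-101771190, which was the widest peak of both clusters with 631 bp and scored 109.03.

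The third and the fourth, at chr15:101804791-101805022 (231 bp) and chr15:101807665-101808223 (558 bp), scored 113.00 and 91.30. With 2.64 kb between them they were the closest pair in either cluster. They were also the only peaks of the 11 with another within 10 kb, 2 of 8 in the type II cluster and 0 of 3 in the type I cluster, against 27.2% of all peaks. The last, at chr15:101845054-101845548 (494 bp), scored 201.22, at percentile 93.8, and lay 24.7 kb inside the upper bound. Peaks went on beyond that bound, with 2 in the next 50 kb. The first of these was 3.56 kb outside and scored 89.23, and the other was 12.6 kb outside and scored 311.44, at percentile 98.8.

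The Krt5 position lay in the longest stretch without a peak between peaks of the type II cluster, 201 kb from 101372573 to 101573158. It was the 127th longest of 680 on chromosome 15, where the median was 56.6 kb, and 70.9% of the grid points lay in a stretch of that length or more. The lower end of the cluster was as empty, with 202 kb from its bound to its first peak. That was part of a stretch of 287 kb which began outside the cluster.

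The type II cluster had 11.4 peaks per Mb (exact Poisson 95% interval 4.93 to 22.5), against 6.55 (6.06 to 7.06) over the 673 peaks of the rest of chromosome 15. The ratio was 1.75 (exact 95% interval 0.751 to 3.46), so a difference from the chromosome was not shown with these bounds. This ratio too rested on where the bounds were drawn. With both bounds moved out by 100 kb the stretch held 12 peaks and the ratio was 2.04 (1.05 to 3.60), an interval that excludes 1. With both moved in by 100 kb it was 1.22 (0.331 to 3.13). Of the windows of 0.700 Mb on chromosome 15, 22.3% held 8 peaks or more, with a median of 3. Its flanks held 24 peaks per Mb below (15.4 to 35.7) and 21 above (13.0 to 32.1). Against both flanks the ratio was 0.508 (0.207 to 1.09), and 34.6% of the windows with a peak in their flanks had as low a ratio to them. The direction thus turned with the sequence compared, higher than the chromosome and lower than the neighbouring 1 Mb on each side. With the bounds as defined, the interval included 1 in both cases.

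**Figure D3:**
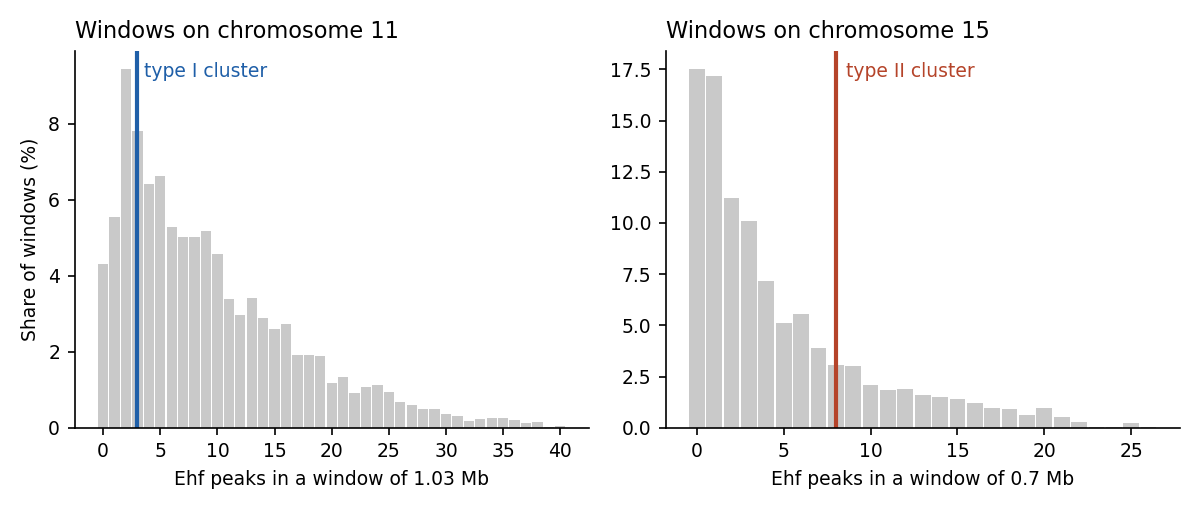
Share of windows (%) by the number of Ehf peaks they hold, for windows of the length of each keratin cluster in steps of 10 kb along its chromosome; the coloured line marks the cluster. The type I cluster, with 3 peaks, is below the median of 7 for chromosome 11, and the type II cluster, with 8, is above the median of 3 for chromosome 15.

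The density of the type II cluster was 3.92 times that of the type I cluster, with an exact 95% interval from 0.942 to 23.0. With 8 and 3 peaks, a difference between the clusters was therefore not shown. Peaks covered 0.114% of the type I cluster against 0.344% of the rest of chromosome 11, and 0.446% of the type II cluster against 0.253% of the rest of chromosome 15.

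Scores of the keratin peaks ran from near the bottom of the list to its upper percentiles. The score is the authors' own value, of unstated scale, and ranks peaks within this list only. In the type I cluster the 3 scores were 59.92, 69.53 and 164.22, and their median of 69.5 compared with 84.3 in the rest of chromosome 11. In the type II cluster the lowest score was 51.08, the median 100.2 and the highest 252.28, and in the rest of chromosome 15 the quartiles were 65.2 and 124 around a median of 84.5. A score at or above the median of the list (86.2) was reached by 1 of 3 type I peaks and 6 of 8 type II peaks (exact binomial 95% interval 34.9 to 96.8%), against 50.1% of all peaks. The interval includes that share. The type II median rested on the 4 peaks within 100 kb of the upper bound. With both bounds moved in by 100 kb, 4 peaks were left and the difference of their median from that of the rest of the chromosome was -11.4 in place of 15.7.

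**Figure D4:**
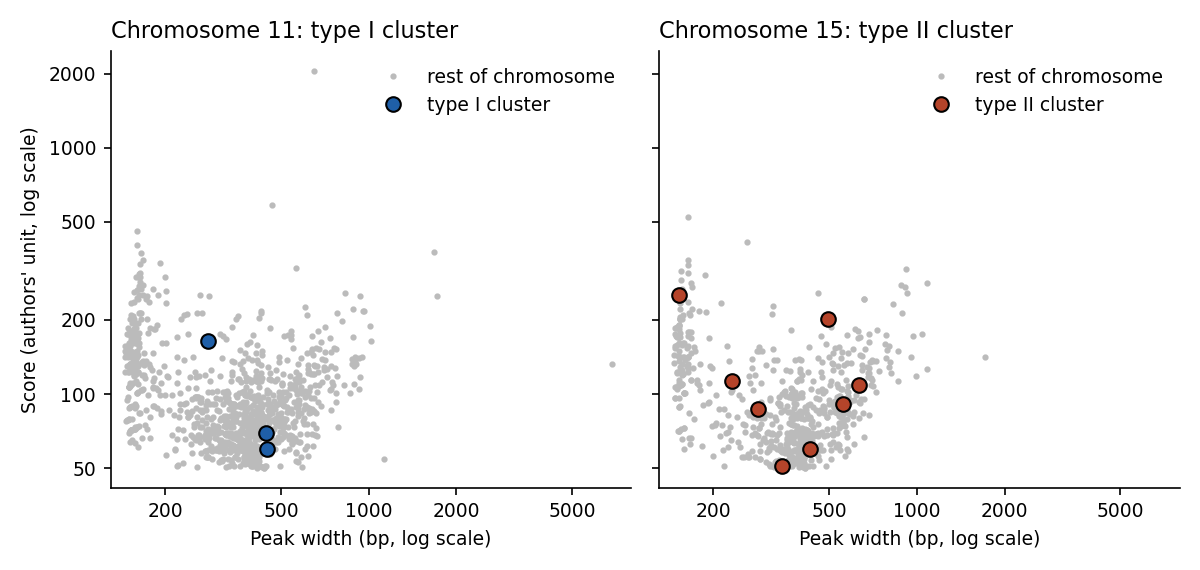
Score of each Ehf peak (authors' unit, log scale) against its width in bp (log scale) on chromosome 11 (left) and chromosome 15 (right), with the 3 type I and the 8 type II keratin peaks enlarged and coloured. The keratin peaks lie among those of their chromosomes, between 152 and 631 bp and between scores of 51.08 and 252.28.

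Widths ranged from 281 to 449 bp in the type I cluster, with a median of 445 bp against 377 bp in the rest of chromosome 11. In the type II cluster they ranged from 152 to 631 bp, with a median of 386 bp against 382 bp in the rest of chromosome 15.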

How the data were processed

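ChIP-seq with an antibody to Ehf and an input control was made from pooled mouse corneal epithelium, 1 library each, grouped by sample title. Only the deposited peak list of the Ehf library was analysed. It has no header, and all 15384 names start with MACS_peak. Bowtie 0.12.7, bedtools 2.11.2 and mm9 are named in the submitters' processing notes. For the peak caller, version, settings and use of the input were not given in the sources used here. The score of each peak is used as the authors deposited it.

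Bounds and gene positions came with the definition of the clusters. The members and lists were chosen with earlier results of these data known. As the text names, every peak was taken where both clusters held 40 or fewer, with Krt12, Krt14, Krt15 and Krt5. Chromosome lengths were those of mm9 in GenomeInfoDb 1.38.1, gaps included, and no peak ended beyond its chromosome. Starts are printed as deposited and may be off by 1 bp. Grid points ran from the first to the last peak of a chromosome. Windows and grid points over the clusters themselves were kept in all shares. Intervals were exact (Poisson, or Clopper-Pearson on the split of counts), at 95%. No p-value was computed. Counting was checked on 20 simulated lists, and planted counts were recovered in 20. Python 3.11.15, numpy 2.4.6, pandas 2.3.3, scipy 1.17.1 and matplotlib 3.10.9 were used.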

Additional observations from a re-analysis of the deposited data

How the results depend on the processing

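In 41 of 54 alternatives the value stayed within its interval, its spread or 1.5 times its size, and the interval of a density ratio that included or excluded 1 still did so. Some of the 41 could not have come out otherwise and tested nothing. A count of 0 peaks at Krt12, Krt14 and Krt5 cannot rise in a narrower window or under a score or width limit. Likewise, the type I share of 0 with a neighbour within 10 kb cannot rise at 5 kb. The type I cluster had a lower density than the sequence it was compared with in all 9 alternatives, which include its flanks (0.108) and the other autosomal sequence, but the interval of the ratio included 1 in 6 of them. The ratio of 0.326 became 0.224 for scores at or above the median of the list, which rested on 1 peak (interval 0.00567 to 1.26). It became 0.405 for peaks of 200 bp or more, 0.346 with peaks up to 1 kb apart joined and 0.477 against all other autosomal sequence. With bounds moved by 100 kb it was 0.637 (out) and 0.405 (in). The ratio of the type II cluster became 0.508 against its flanks, and 2.04 (1.05 to 3.60) with bounds moved out, where the stretch held 12 peaks in all. Windows of 50 kb on each side held 2 peaks at Krt12 and 1 at Krt5. With a neighbour distance of 50 kb, 7 of 8 type II peaks (87.5%) and 2 of 3 type I peaks (66.7%) had a neighbour, against 63.5% of all peaks. AGGAAG and CCGGAAG matched 0 of the promoters of Krt12, Krt14 and Krt5, where GGAA matched 3. Where not given by construction, the cause was not tested. With 11 peaks and unknown depth, only large differences could be resolved, and weaker sites, which the authors' threshold removed, could not be counted. No paired analysis was possible because there was only 1 library of each kind.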
